A study of Mus musculus with 18 samples.

Results

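The comparison described here asks which small RNAs responded differently to the Atxn2 knock-in in microglia than in astrocytes of ageing mouse brain. It is an interaction: the change from wild type (WT) to knock-in (KIN) in microglia minus the change from WT to KIN in astrocytes, on the log2 scale. A feature called higher had a more positive KIN change in microglia, and a feature called lower had a more negative one. It used 12 of the 18 libraries of the series, 3 each of WT astrocytes, KIN astrocytes, WT microglia and KIN microglia, and 7908 of the 33052 features with a count reached the minimum of 5 counts in 2 libraries. The mice were aged 10 months on a C57BL/6 background. KIN animals were homozygous for the Atxn2-CAG100-KIN allele, an expanded CAG repeat placed in the endogenous Atxn2 gene as a model of spinocerebellar ataxia type 2, while WT animals were not expanded, and no animal was treated. The study's methods describe magnetic sorting in which microglia were bound by CD11b first and astrocytes by ACSA-2 afterwards from the same brain, so neither fraction is a pure culture, and CD11b does not separate microglia from other myeloid cells.

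Micro RNAs are short RNAs cut from hairpin precursors that pair with messenger RNAs mainly through their seed, bases 2 to 8, and reduce their output. Small nucleolar RNAs (snoRNAs) of the C/D box type guide chemical marks onto other RNAs, and the Snord116 and Snord115 copies are an exception in that they lie in long tandem rows inside a single imprinted host gene, Snhg14, which is active mainly in neurons. Microglia are the resident macrophages of the brain and change their RNA content when they become reactive, whereas astrocytes share the neural lineage with neurons.

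The sequences below are those on which the results turn, miRNAs as in the deposited table and snoRNAs as in the GRCm39 annotation. The miR-200 family is shown because it holds the largest positive interaction and its members share seeds across 2 loci. Capitals mark the seed. miR-200c-3p, miR-200b-3p and miR-429-3p carry 1 seed and miR-200a-3p and miR-141-3p carry another. Mir200c and Mir141 lie together on chromosome 6, and Mir200a, Mir200b and Mir429 lie together on chromosome 4.
miR-200c-3p: tAATACTGccgggtaatgatgga
miR-200b-3p: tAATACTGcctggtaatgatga
miR-429-3p: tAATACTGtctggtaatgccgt
miR-200a-3p: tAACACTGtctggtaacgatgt
miR-141-3p: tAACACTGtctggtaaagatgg

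miR-92b-3p is shown beside miR-92a-3p and miR-25-3p, which have the same seed but, as given further on, did not pass the test. The next 4 are shown because they rose in a single fraction, and the last is shared letter for letter by mmu-miR-669o-3p and mmu-miR-669a-3p.
miR-92b-3p: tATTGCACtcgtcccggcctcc
miR-92a-3p: tATTGCACttgtcccggcctg
miR-25-3p: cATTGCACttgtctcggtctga
miR-210-3p: cTGTGCGTgtgacagcggctga
miR-34a-5p: tGGCAGTGtcttagctggttgt
miR-335-5p: tCAAGAGCaataacgaaaaatgt
miR-19b-3p: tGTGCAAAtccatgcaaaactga
miR-669o-3p and miR-669a-3p: aCATAACAtacacacacacgtat

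For the snoRNA rows, the copy with the smallest p, Snord116l17, and a Snord115 copy, Gm24866, are shown, with the first C box (tgatga) and the last D box (ctga) in capitals. Snord116l17 lies at chr7:59511479-59511572 and Gm24866 at chr7:59043309-59043387, both on the minus strand of GRCm39. Within the host gene, 30 Snord116 copies had exactly the first sequence and 33 Snord115 copies exactly the second, so a read could not be assigned to 1 copy.
Snord116l17: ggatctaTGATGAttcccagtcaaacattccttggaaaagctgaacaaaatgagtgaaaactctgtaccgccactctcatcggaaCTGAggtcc
Gm24866: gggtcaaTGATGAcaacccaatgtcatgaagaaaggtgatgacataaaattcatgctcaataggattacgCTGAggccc

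The libraries held between 3144427 and 4316748 counts. Entries with a count, before summing, numbered 27657 to 32839 in WT and 21874 to 23544 in KIN astrocytes. In microglia they numbered 27713, 17884 and 29541 in WT (replicates 1 to 3) and 13941 to 20324 in KIN. The part of these differences in the results was not tested. Levels are given as CPM, counts divided by the library total and its TMM scaling factor on the usual scale of RNA sequencing, except that sums over a marker list are given in CPM of the library total. The fraction labels were checked against a defining miRNA of each: mmu-miR-142a-3p, a miRNA of blood-derived and myeloid cells, was higher in WT microglia than in WT astrocytes with a log2 difference of 8.44, and mmu-miR-9-5p, a miRNA of the neural lineage, was lower with −5.28. Both fractions also held RNA of other cells, and the WT replicate 2 libraries stood apart. The TMM factors of WT replicates 1 to 3 were 1.375, 1.015 and 1.282 in astrocytes and 1.198, 0.818 and 1.298 in microglia. In KIN they were 0.909 to 0.995 in astrocytes and 0.7635 to 0.8262 in microglia. The summed level of 20 neuron and synapse transcripts was 27.4 and 28.9 in WT microglia replicates 1 and 3, 6.62 in replicate 2 and between 1.27 and 3.48 in KIN microglia, against 46.7 to 66.2 in WT astrocytes and 13.2 to 17.0 in KIN astrocytes. Atxn2 itself gave between 1 and 10 counts per library, too few to check the genotype. Xist had 33, 102 and 25 counts in WT and 5, 47 and 83 in KIN astrocytes (replicates 1 to 3), and 37, 36 and 41 in WT and 4, 44 and 61 in KIN microglia, so KIN replicate 1 was lowest in both fractions. Methods describe 2 male pairs and 1 female pair. The part of sex in the results was not tested. The labels call the libraries biological replicates without saying which came from 1 brain.

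In the fit of all 12 libraries, 10 features were called higher (0.126% of those tested) and 59 lower (0.746%), at an edgeR adjusted p of at most 0.05 and a difference of at least 1 on the log2 scale. Before adjustment, 707 features had a p of at most 0.05, and 5% of those tested is 395. The same fit called 198 features higher (2.5%) and 318 lower (4.02%) in KIN astrocytes, and 210 higher (2.66%) and 313 lower (3.96%) in KIN microglia. Of these, 94 were called in the same direction in both fractions and 1, mmu-miR-34b-3p, in opposite directions. Of the 59 lower features 36 were snoRNAs, and 35 of these were Snord116 or Snord115 copies, which divide a pool of reads and are not independent. With the copies summed per row, a choice made after the values were seen, 9 features were higher and 10 lower. The lower calls also included 11 mature miRNAs, 7 hairpins, 2 piRNAs, 2 protein-coding genes and the host gene Snhg14. The higher calls were 4 mature miRNAs, their 4 hairpins and 2 protein-coding genes.

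The median interaction over all features was −0.11. It was 0.12 when the scaling was taken from mature miRNAs alone, which left 4 features higher and 1 lower. Without WT replicate 2 of both fractions, 126 features were higher and 168 lower, including all 10 higher and 57 of the 59 lower features, and without microglia WT replicate 2 alone 138 were higher and 122 lower. Leaving out KIN replicate 2 or 3 of microglia left 3 higher and 1 lower or 3 higher and 3 lower, and leaving out KIN replicate 3 of astrocytes left 3 higher and 4 lower.

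**Figure D1:**
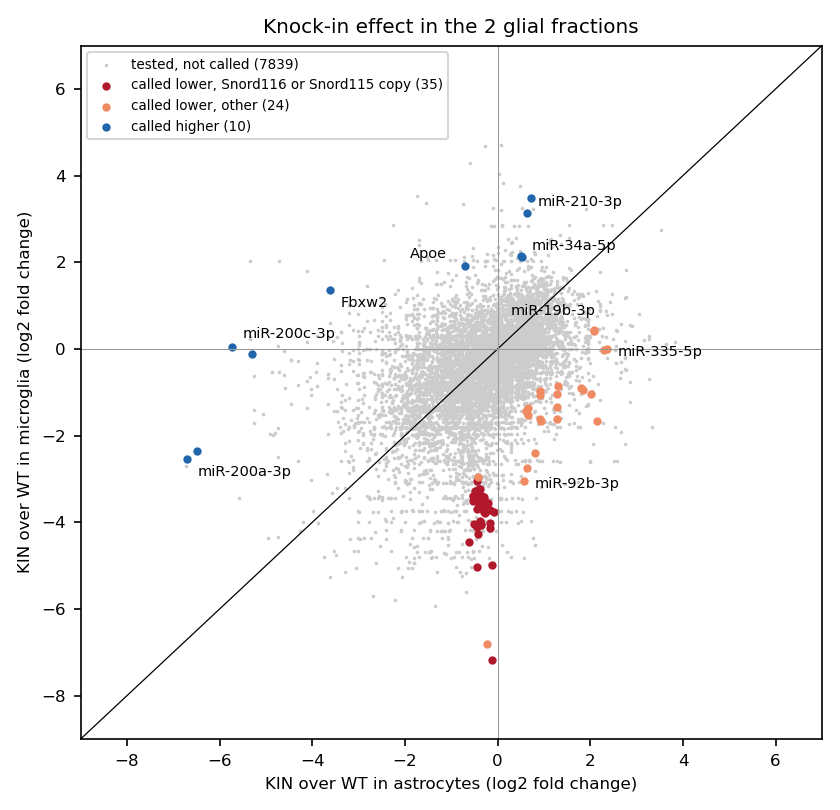
Log2 fold change of KIN over WT in astrocytes (x axis) and in microglia (y axis) for the 7908 features tested, with the line of equal change; blue points were called higher, red and orange points lower. The called Snord116 and Snord115 copies lie near 0 in astrocytes and at or below −3.05 in microglia, whereas mmu-miR-200c-3p lies near 0 in microglia and at −5.74 in astrocytes.

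The miR-200 family, which in other tissues keeps epithelial cells epithelial and in the brain is found in sensory and choroid plexus cells, gave the largest positive interaction. mmu-miR-200c-3p (chr6:124695287-124695309, minus strand of GRCm39, within the hairpin gene Mir200c) had 45, 12 and 32 counts in WT astrocytes and 0, 0 and 1 in KIN astrocytes. In microglia it had 38, 26 and 35 counts in WT, and KIN had 14, 41 and 31. The groups were thus fully separate in astrocytes and overlapped in microglia. Against its 1 count in KIN astrocytes, the WT level was 72.0-fold higher (95% interval of the counts 12.6 to 2870), while the microglia log2 fold change was 0.05 ± 0.42 (SE). The interaction was 5.79 ± 0.94 (edgeR adjusted p 0.0032), and it kept its direction and passed the threshold in each of 23 alternative fits, with values between 5.32 and 7.83. Intervals of counts cover counting error only.

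mmu-miR-200a-3p (chr4:156139368-156139389, minus strand, in Mir200a) fell in both fractions, but by more in astrocytes. It had 106, 62 and 137 counts in WT and 0, 2 and 0 in KIN astrocytes, and 88, 44 and 85 in WT and 5, 12 and 13 in KIN microglia. No KIN value reached a WT value in either fraction. The log2 fold change was −2.54 ± 0.44 (SE) in microglia (edgeR adjusted p 0.000413). In astrocytes WT was 123-fold above the 2 counts of KIN (95% interval 33.9 to 1020). Its interaction was 4.17 ± 0.87 with an adjusted p of 0.0174, and it was lost in 6 of 23 alternatives, with adjusted p up to 0.093.

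The other members on chromosome 4 also fell in both fractions. In microglia mmu-miR-200b-3p fell with −1.98 ± 0.47 (SE) and mmu-miR-429-3p with −2.58 ± 0.53, and in astrocytes they fell with −4.85 ± 0.59 and −4.31 ± 0.60. mmu-miR-141-3p, the neighbour of miR-200c-3p on chromosome 6, passed in neither fraction, with −0.03 ± 0.53 in microglia and −2.90 ± 1.04 in astrocytes (edgeR adjusted p 0.0846). In astrocytes the value of miR-200c-3p, −5.74, lay among those of the chromosome 4 members, and a difference between the loci was not tested. None of miR-200b-3p (interaction 2.87 ± 0.79, adjusted p 0.0764), miR-429-3p (1.74 ± 0.88, 0.59) and miR-141-3p (2.87 ± 1.18, 0.399) was called. The miR-183 cluster of sensory cells fell in both fractions without a called difference, for example mmu-miR-183-5p with −2.96 ± 0.58 in astrocytes and −4.38 ± 0.82 in microglia. Over the 10 miRNAs of epithelial, sensory and choroid plexus cells, 2 were called higher and 0 lower. Their median interaction was 2.22 (quartiles −0.27 and 2.87) beside −0.11 over all features, with 7 positive and 3 negative. mmu-miR-204-5p, the choroid plexus miRNA and the most abundant of the list, had an interaction of 0.64 ± 0.44. Summed choroid plexus and ependyma transcripts ranged from 17.3 to 47.7 CPM in WT and from 22.8 to 67.5 in KIN astrocytes, and from 15.0 to 15.3 in WT and 9.31 to 30.8 in KIN microglia. The part of such cells was not tested.

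Apoe, which encodes apolipoprotein E, the main lipid carrier made by astrocytes and a transcript that rises in reactive microglia, was the protein-coding gene with the smallest p (chromosome 7, 19430034 to 19434947, minus strand of GRCm39). In replicates 1 to 3 its level was 22.9, 29.2 and 30.5 CPM in WT and 14.6, 16.9 and 18.9 in KIN astrocytes. In microglia it was 8.89, 11.6 and 6.72 CPM in WT, and KIN had 32.5, 36.1 and 33.0. The KIN values lay below all WT values in astrocytes and above all WT values in microglia. The rise in microglia was 1.91 ± 0.34 on the log2 scale (SE, edgeR adjusted p 0.000445), while the astrocyte change of −0.71 ± 0.32 did not pass (0.17). The interaction was 2.63 ± 0.46 (adjusted p 0.00789) and passed in each of 23 alternatives, between 2.44 and 3.01. Reads of messenger RNA in a small RNA library are taken as short fragments, and Apoe rests on 942 of them.

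Of 17 tested genes of disease-associated microglia, a set that reactive microglia raise together, Apoe alone was called. The median interaction of the list was 1.06, and 15 of 17 were positive. Ctsd, a lysosomal protease, had 1.39 ± 0.55 (edgeR adjusted p 0.354), and Lpl, lipoprotein lipase, had 2.16 ± 0.79 (0.273). The summed level of the list was 69.4 to 96.3 CPM in WT and 115 to 124 in KIN microglia, against 57.3 to 77.1 in WT and 34.0 to 40.4 in KIN astrocytes. KIN was thus above WT in microglia and below it in astrocytes without overlap. The sum includes Apoe, whose KIN values were likewise above WT in microglia and below WT in astrocytes, so the sum is not a separate observation. A sum without Apoe was not taken. None of the 17 genes was called in astrocytes, where their median log2 fold change was 0, beside −0.20 over all features. In the same KIN astrocyte libraries summed astrocyte transcripts were also lower, at 206, 155 and 164 CPM against 545, 458 and 550 in WT, with 6 of 17 called lower, and their part in the Apoe and list values was not tested. Homeostatic microglia transcripts summed to 143 to 194 CPM of the library total in WT and 86.7 to 130 in KIN microglia. In the edgeR fit, which also scales by TMM factors, 0 of the 13 tested were called in microglia. Their median KIN change there was −0.30, beside −0.28 over all features.

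mmu-miR-210-3p, the miRNA best known as a target of hypoxia-inducible factor (chr7:140801320-140801341, minus strand, in Mir210), rose in microglia. Its level was 7.21, 12.3 and 7.14 CPM in WT and 57.4, 81.9 and 93.5 in KIN microglia, with no overlap. In astrocytes it was 5.78, 16.6 and 7.58 in WT and 16.1, 14.4 and 16.0 in KIN, where WT replicate 2 was above the KIN values. The log2 fold change was 3.15 ± 0.38 (SE) in microglia and 0.64 ± 0.37 in astrocytes. The interaction of 2.51 ± 0.53 (edgeR adjusted p 0.0174) was lost without WT replicate 1 or 3 or KIN replicate 2 or 3 of microglia or without KIN replicate 3 of astrocytes, with adjusted p between 0.0546 and 0.0835.

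mmu-miR-34a-5p, a target of p53 (chr4:150152930-150152951, plus strand, in Mir34a), stood at 128, 162 and 121 CPM in WT and 535, 683 and 584 in KIN microglia. In astrocytes it stood at 78.9, 165 and 107 in WT, and KIN had 162, 179 and 157. The groups were separate in microglia and overlapped in astrocytes. Its interaction was 1.63 ± 0.40 (SE, edgeR adjusted p 0.0399), and it passed in 11 of 23 alternatives, with adjusted p up to 0.5.

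These 2 were the called members of a list of 14 miRNAs grouped as myeloid and inflammatory, whose median interaction was 1.24. In the list 10 were positive and 4 negative. The 2 called members are introduced above as targets of hypoxia-inducible factor and p53, and neither was used here as a marker of myeloid cells. In microglia 11 of the 14 were called higher, in astrocytes 3. Of all 477 tested mature miRNAs, 63 were called higher in microglia and 86 in astrocytes. Over all features the shares were 2.66% and 2.5%. mmu-miR-222-3p (interaction 1.67 ± 0.48, edgeR adjusted p 0.1), mmu-miR-221-3p (1.41 ± 0.45, 0.154) and mmu-miR-21a-5p (1.44 ± 0.46, 0.158) rose in microglia by 2.09, 1.82 and 2.23 and did not pass in astrocytes. mmu-miR-155-5p, induced in activated macrophages, rose in both fractions, by 2.63 ± 0.37 in microglia and 1.34 ± 0.42 in astrocytes. The defining myeloid miRNA mmu-miR-142a-3p lay the other way, since it rose by 2.17 ± 0.33 in astrocytes and by 1.12 ± 0.29 in microglia (interaction −1.06 ± 0.43, adjusted p 0.38). Its astrocyte level was 5.09, 8.91 and 5.92 CPM in WT and 24.8, 43.5 and 21.7 in KIN, far under the 2050 to 2800 of WT microglia.

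**Figure D2:**
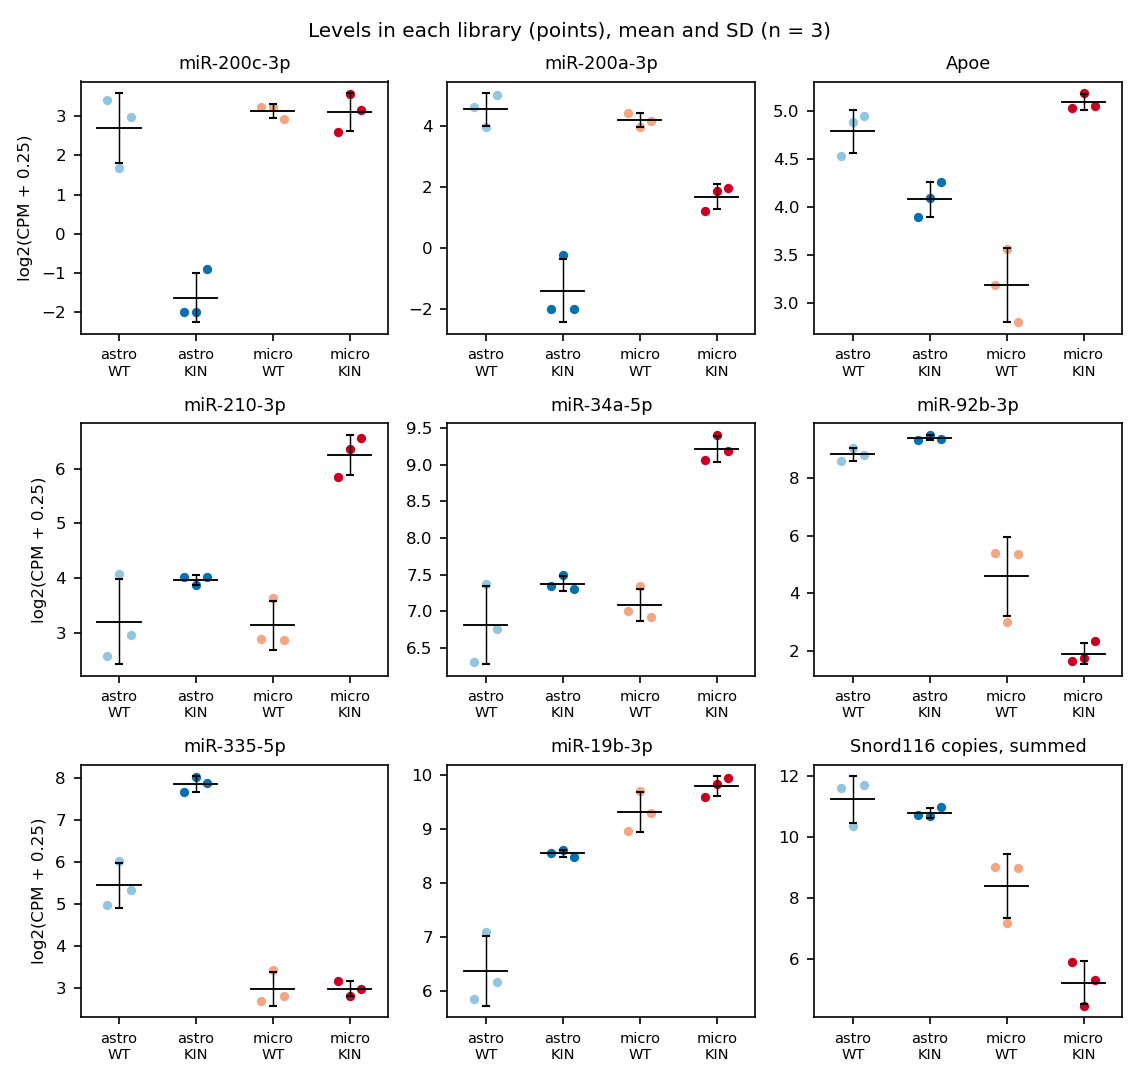
Level of 8 called features and of the summed Snord116 copies in each of the 12 libraries, as log2(CPM + 0.25); points are libraries, bars the mean and SD of 3, and each panel has its own scale. Apoe lay below WT in KIN astrocytes and above WT in KIN microglia, and mmu-miR-92b-3p was at 2.91 to 4.79 CPM in KIN microglia against 642 to 724 in KIN astrocytes.

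mmu-miR-92b-3p, a miRNA of neural progenitors and astrocytes (chr3:89134433-89134454, minus strand, in Mir92b), had the smallest p of all features. It stood at 387, 523 and 449 CPM in WT and 642, 724 and 655 in KIN astrocytes. In microglia it was far lower, at 42.1, 7.75 and 40.8 in WT and 2.91, 3.11 and 4.79 in KIN. KIN was above WT in astrocytes and below WT in microglia without overlap, though WT replicate 2 of microglia lay closer to KIN than to the other WT libraries. The log2 fold change was 0.57 ± 0.35 (SE) in astrocytes (edgeR adjusted p 0.322) and −3.05 ± 0.44 in microglia (6.39e-05). The interaction was −3.63 ± 0.56 (0.00214), and it passed in each of 23 alternatives, between −3.96 and −3.34. Its seed mates mmu-miR-92a-3p (−1.16 ± 0.39, adjusted p 0.198) and mmu-miR-25-3p (0.33 ± 0.46, 0.931) were not called.

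Of 6 neural lineage miRNAs, mmu-miR-92b-3p and mmu-miR-135a-5p were called lower, all 6 had a negative interaction, and the median was −1.31. mmu-miR-135a-5p was at 60.3, 15.5 and 60.9 CPM in WT and 11.2, 23.4 and 18.6 in KIN microglia, which overlap in WT replicate 2, against 320 to 601 in WT and 623 to 752 in KIN astrocytes. Its interaction was −2.01 ± 0.51 (SE, edgeR adjusted p 0.0495) and passed in 6 of 23 alternatives. The gene Glyctk overlaps Mir135a-1 on the genome and was called with −2.04, so it is not a separate observation. The summed level of the 6 miRNAs was 759, 527 and 858 CPM in WT and 328, 260 and 285 in KIN microglia, against 6839 to 10690 in WT and 8244 to 8735 in KIN astrocytes. Summed neuronal miRNAs were at 202, 76.3 and 206 in WT and 62.9, 73.4 and 65.9 in KIN microglia, and summed astrocyte transcripts at 26.2, 13.2 and 33.5 and at 9.85, 13.7 and 8.38. These microglia values thus moved with the called decreases, and their part in them was not tested. In bulk libraries fewer cells of a type and less RNA per cell cannot be told apart. No neuronal miRNA of 11 tested was called (2 at an unadjusted p of at most 0.05, 1 called by DESeq2), and mmu-miR-124-3p had an interaction of −0.86 ± 0.50.

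**Figure D3:**
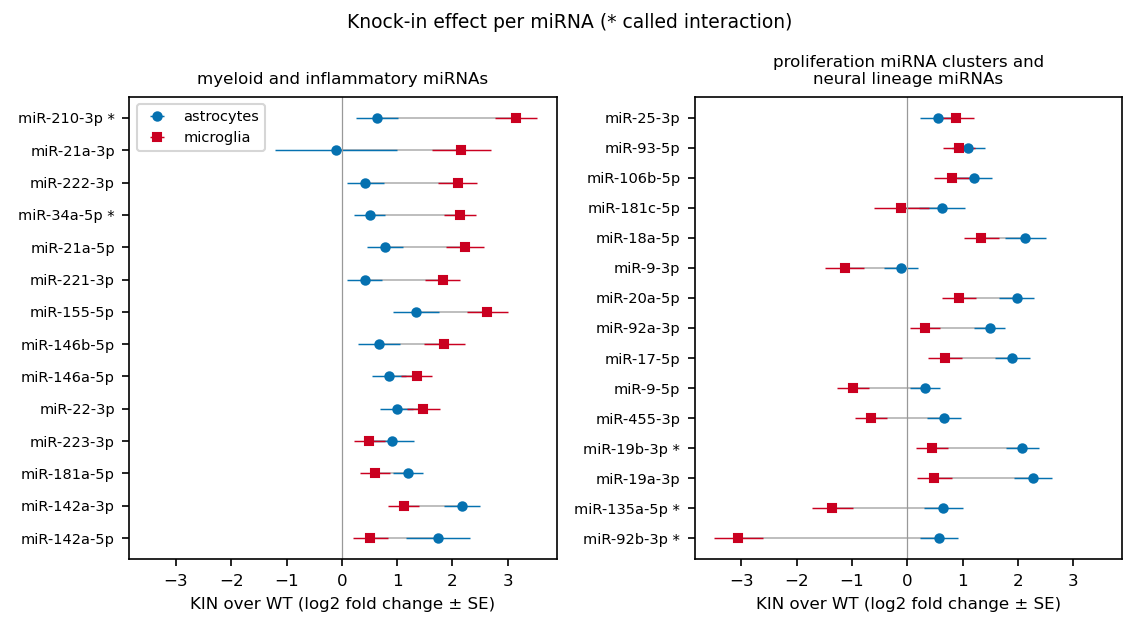
Log2 fold change of KIN over WT with its SE in astrocytes (blue circles) and microglia (red squares), for the myeloid and inflammatory miRNAs (left) and for the proliferation clusters and neural lineage miRNAs (right); an asterisk marks a called interaction. The microglia value lies to the right for mmu-miR-210-3p, 3.15 against 0.64, and to the left for mmu-miR-92b-3p, −3.05 against 0.57.

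The Snord116 copies were the largest group among the calls. They lie between positions 59323209 and 59554596 of chromosome 7 (GRCm39) inside Snhg14, and the 70 copies with a count had 92 to 94 bases and at least 95.7% identity with Snord116l17. All 69 tested copies had a negative interaction, with a median of −2.98, and 33 were called lower. Because the copies are near-identical, they were summed and fitted as 1 feature. The sum stood at 515, 144 and 506 CPM in WT and 58.8, 21.8 and 39.6 in KIN microglia, and at 3129, 1307 and 3358 in WT and 1698, 1626 and 2010 in KIN astrocytes. KIN lay under all WT values in microglia, whereas in astrocytes the WT replicate 2 value was under all KIN values. The change was −3.29 ± 0.41 (SE) in microglia (edgeR adjusted p 1.21e-05) and −0.55 ± 0.37 in astrocytes (0.373). The interaction of the sum was −2.74 ± 0.54 with an adjusted p of 0.015. It passed in 17 of 23 alternatives and lay between −3.15 and −2.43. It was lost with scaling from mature miRNAs alone (adjusted p 0.243), with robust dispersions (0.118) and with a filter of 10 counts in 6 libraries (0.0678), as well as without KIN replicate 3 of astrocytes (0.0687) and without KIN replicate 2 (0.0777) or 3 (0.055) of microglia.

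Snord115 copies, which lie further along the host gene between 58993821 and 59268843, moved less far apart. Of 124 tested copies 119 were negative, with a median of −1.83, and 2 were called lower. Their sum was 629, 295 and 596 CPM in WT and 130, 86.0 and 98.2 in KIN microglia, and 3919, 2121 and 3991 in WT and 1758, 1544 and 2491 in KIN astrocytes. It fell in microglia by 2.28 on the log2 scale, had −0.79 ± 0.30 (SE) in astrocytes, and its interaction of −1.48 ± 0.42 was not called (edgeR adjusted p 0.176; 0.00233 without WT replicate 2 of microglia). The difference between the Snord116 and Snord115 sums was not tested.

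Single copies named by rule were Snord116l17 (−4.86 ± 0.88, SE), Snord116l2 (−3.51 ± 0.66), Snord116l5 (−3.57 ± 0.72), Gm24760 (−3.84 ± 0.75), Gm22285 (−3.68 ± 0.75), Gm26201 (−3.70 ± 0.78), Gm24518 (−3.53 ± 0.75) and Gm25615, all Snord116 copies. Gm25615 had 33, 3 and 25 counts in WT and 0 in each KIN microglia library. With KIN set to a floor of 3 counts over the group, it was 16.4-fold lower than WT. The lower 95% limit, which includes the counting error of WT, was 12.9-fold. In astrocytes Gm25615 had 45 to 118 counts in WT and 52 to 73 in KIN. Snord116l17 had 94 counts in WT and 2 in KIN microglia.

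Snhg14 (chromosome 7, 58957672 to 59628040, minus strand) overlaps the copies it hosts on the genome, so its reads are not a separate observation. It was at 31.0, 6.34 and 27.7 CPM in WT and 2.50, 2.54 and 3.38 in KIN microglia, and at 106, 53.2 and 117 in WT and 63.4, 60.7 and 83.2 in KIN astrocytes. Its interaction was −2.53 ± 0.60 (SE, edgeR adjusted p 0.0313) and passed in 12 of 23 alternatives. The same microglia libraries, WT replicates 1 and 3, had the most neuron and synapse transcripts, and the part of neuronal RNA in the Snord116 values was not tested.

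**Figure D4:**
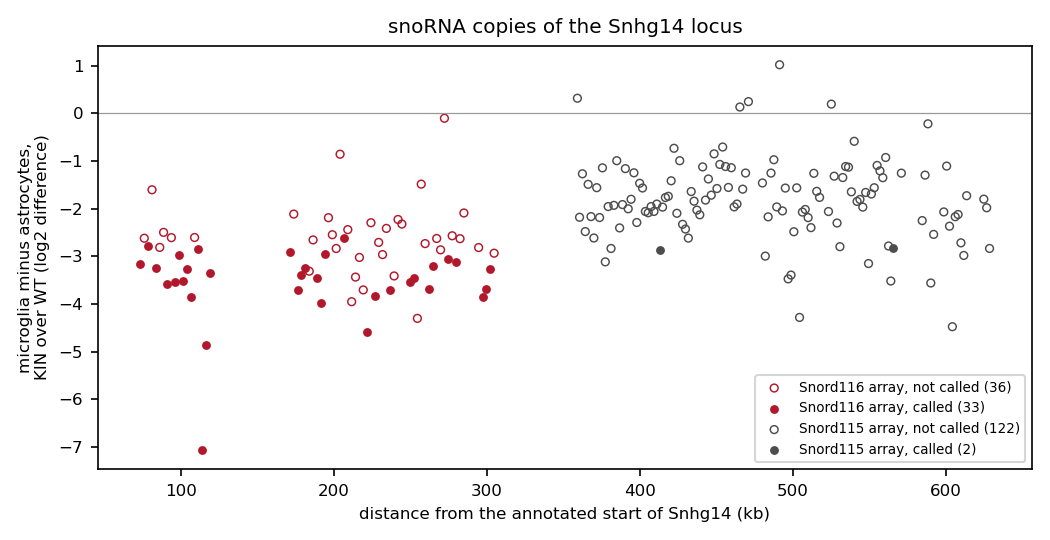
Interaction (log2 difference) of each tested Snord116 copy (red) and Snord115 copy (grey) against its distance in kb from the annotated start of Snhg14; filled points were called. All 69 Snord116 copies lie under 0, with a median of −2.98 against −1.83 for the 124 Snord115 copies.

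The imprinted Dlk1-Dio3 region of chromosome 12, another neuron-rich noncoding locus, leaned the same way with fewer calls. The snoRNA Gm23787 (109651396 to 109651468, plus strand) was called with 20, 0 and 28 counts in WT and 0 in each KIN microglia library. WT replicate 2 thus had the same count as KIN. With KIN set to a floor of 3 counts over the group, Gm23787 was 12.9-fold lower than WT. The lower 95% limit, which includes the counting error of WT, was 10.1-fold. In astrocytes Gm23787 had 322 counts in WT and 221 in KIN. It was chosen for mention after its values were seen. All 7 tested long noncoding RNAs of the region were negative with a median of −1.92, and none was called (DESeq2 0, 6 with an unadjusted p of at most 0.05). Rian had −1.69 ± 0.54 (SE, edgeR adjusted p 0.162) and AF357425 −2.25 ± 0.63 (0.0853). In microglia 5 of the 7 were called lower, beside 3.96% of all features. In astrocytes Meg3 alone was called lower, beside 4.02% of all features, and it fell in both fractions. Their sum stood at 2199, 857 and 2245 CPM in WT and 641, 643 and 908 in KIN astrocytes (median log2 fold change −0.90), and at 436, 67.4 and 432 in WT and 26.7, 36.6 and 39.8 in KIN microglia (−2.59). WT replicate 2 was the lowest WT library in each fraction. It lay within the KIN range in astrocytes and above it in microglia. Of 30 miRNAs of the region 29 were negative with a median of −1.36. None was called, 9 had an unadjusted p of at most 0.05 and DESeq2 called 0. Of all 477 tested mature miRNAs 290 had a negative interaction, and of all 7908 features 4392 did.

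A second kind of lower call came from a rise in astrocytes. mmu-miR-335-5p, hosted by the imprinted gene Mest (chr6:30741313-30741335, plus strand, in Mir335), was at 31.2, 65.1 and 40.3 CPM in WT and 203, 262 and 238 in KIN astrocytes. In microglia it was at 6.25, 10.6 and 6.72 in WT, and KIN had 8.74, 6.78 and 7.61. The astrocyte groups were separate and the microglia groups overlapped. It rose by 2.36 ± 0.32 (SE) in astrocytes (edgeR adjusted p 2.49e-05), had −0.01 ± 0.36 in microglia, and its interaction was −2.37 ± 0.47 (0.0153), lost in 5 of 23 alternatives.

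mmu-miR-19b-3p, of the miR-17-92 cluster that drives proliferation (with copies in Mir19b-1 on chromosome 14 and Mir19b-2 on chromosome X), stood at 57.8, 137 and 71.8 CPM in WT and 375, 392 and 360 in KIN astrocytes. In microglia it was at 500, 837 and 634 in WT, and KIN had 774, 915 and 996. The interaction was −1.63 ± 0.42 (SE, edgeR adjusted p 0.0495) and passed in 10 of 23 alternatives. mmu-miR-19a-3p, which has the same seed, had −1.78 ± 0.46 (0.0561). Of 9 tested miRNAs of the proliferation clusters 8 were called higher in astrocytes and 1 in microglia. Of all 477 tested mature miRNAs, 86 were called higher in astrocytes and 63 in microglia, with median KIN changes of 0.76 and 0.55. Among the 9, 8 had a negative interaction, the median was −1.05, and 1 was called. In WT the miRNAs of the proliferation clusters were more abundant in microglia, with a median log2 difference of 2.63. The myeloid mmu-miR-142a-3p rose in the same KIN astrocyte libraries. Summed homeostatic microglia transcripts were at 7.52 to 14.2 CPM of the library total there against 26.4 to 35.0 in WT, libraries in which summed astrocyte transcripts were lower as well. In the edgeR fit the 13 tested microglia transcripts had a median KIN change of 0.03 in astrocytes, beside −0.20 over all features, with 1 called lower. Their part in the values of miR-19b-3p was not tested.

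mmu-miR-669o-3p and mmu-miR-669a-3p share 1 sequence, found in 12 hairpin genes between 10481719 and 10519188 on chromosome 2 (plus strand), the repeats inside Sfmbt2, and count as 1 observation. miR-669o-3p had 7, 17 and 11 counts in WT and 38, 35 and 30 in KIN astrocytes, and 50, 51 and 62 in WT and 11, 28 and 33 in KIN microglia. KIN was above WT in astrocytes and below WT in microglia without overlap. It rose by 1.84 ± 0.42 (SE) in astrocytes, had −0.95 ± 0.39 in microglia (edgeR adjusted p 0.146), and its interaction was −2.79 ± 0.57 (0.0157), and that of miR-669a-3p was −2.70 ± 0.55. From the same repeats mmu-miR-466d-3p (−3.06 ± 0.74) and mmu-miR-466p-3p (−3.83 ± 0.95) were called on 114 and 55 counts in all.

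The remaining calls lay outside the rule for named features and were chosen after their values were seen. mmu-miR-34b-3p, of a locus active in ciliated ependyma, was the feature called in opposite directions, at 80.5, 155 and 108 CPM in WT and 250, 294 and 286 in KIN astrocytes and at 17.3, 4.58 and 27.3 in WT and 7.90, 4.52 and 7.61 in KIN microglia, which overlapped there (interaction −2.61 ± 0.56, SE, edgeR adjusted p 0.0175). mmu-miR-375-3p, a neuroendocrine miRNA, had −2.53 ± 0.56 (0.0202) with 80 counts in WT and 20 in KIN microglia. mmu-miR-202-5p had −3.38 ± 0.80 (0.0298), with 28 and 3 counts in WT and KIN microglia. The hairpin Mir384 had −2.90 ± 0.73 (0.0463). Mir219b lies across from Mir219a-2, whose miRNA marks oligodendrocytes, and unstranded counting cannot tell them apart. It had −2.16 ± 0.48 (0.0202), with 351, 775 and 446 CPM in WT and 1540, 1037 and 1307 in KIN astrocytes and at most 7.45 in any microglia library.

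mmu-piR-59557 (−2.31 ± 0.50, SE) and mmu-piR-44760 (−1.88 ± 0.48) are listed as piRNAs, but their sequences lie whole inside the 7SL RNA genes Rn7s1, Rn7s2 and Rn7s6, the RNA of the signal recognition particle. piR-59557 rose in astrocytes, from 20.6, 13.1 and 29.6 CPM in WT to 51.1, 57.0 and 45.5 in KIN, and stood at 43.3, 44.4 and 35.3 in WT and 32.0, 13.3 and 15.5 in KIN microglia. Ccnb1ip1 (−1.97 ± 0.44, edgeR adjusted p 0.023) overlaps Rpph1, the RNA of RNase P, so its reads may belong to either. None of the 18 tested snRNAs and other housekeeping noncoding RNAs was called, their median was −0.35, and 4 had an unadjusted p of at most 0.05, with 1 called by DESeq2.

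Fbxw2, an F-box subunit of a ubiquitin ligase (chromosome 2, 34694192 to 34716323, minus strand), was called higher on 40 counts in all, with 9, 2 and 9 in WT and 1, 0 and 0 in KIN astrocytes and 1, 2 and 3 in WT and 3, 6 and 4 in KIN microglia. Its interaction was 4.97 ± 1.23 (SE, edgeR adjusted p 0.0434) and it passed in 9 of 21 alternatives, with adjusted p up to 0.213. The Fbxw2 transcript with the most counts is listed as a retained intron, so the counts need not stand for its messenger RNA.

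No tRNA isodecoder was called, yet as a class they lay on the positive side. Of 179 isodecoders 161 had a positive interaction, with a median of 0.53 (quartiles 0.26 and 0.84) beside −0.11 over all features. Before adjustment 20 of the 179 had a p of at most 0.05, beside 707 of all 7908 features. DESeq2 called 2 of the 179, beside 131 of all 7908. Within fractions, 73 isodecoders were called higher in microglia and 12 in astrocytes, with medians of 1.05 and 0.44. Over all features 2.66% were called higher in microglia and 2.5% in astrocytes, with median KIN changes of −0.28 and −0.20. Of the 7908 features 3516 had a positive interaction. Asparagine tRNAs had the highest median of the amino acid groups (1.38, 3 isodecoders), followed by histidine (1.17, 2 isodecoders), and glutamate the lowest (−0.09, 6 isodecoders), after tyrosine (0.01, 5 isodecoders). Isodecoders share sequence and are not independent observations.

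All 22 mitochondrial tRNAs had a positive interaction, with a median of 0.74, and none was called (10 at an unadjusted p of at most 0.05, DESeq2 called 2). mt-Tr had 1.18 ± 0.38 (SE, edgeR adjusted p 0.163) and mt-Te 1.19 ± 0.40 (0.2). Within fractions the median log2 fold change was −0.06 in astrocytes and 0.68 in microglia, beside −0.20 and −0.28 over all features.

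As shares of the library total, mitochondrial tRNA was 7.39%, 7.09% and 6.93% in WT and 5.19%, 5.26% and 5.96% in KIN astrocytes, and 1.59%, 1.68% and 1.40% in WT and 2.09%, 1.87% and 2.00% in KIN microglia. KIN was below WT in astrocytes and above WT in microglia without overlap. These shares leave out the TMM factors. In the edgeR fit, which uses them, the median change of the 22 in astrocytes was −0.06 with 0 called. The 2 measures thus differ for astrocytes, and a fall there rests on the shares alone. The difference of differences was 2.10 percentage points, and permuting the 3 KIN and 3 WT same-number differences (exact permutation, two-sided) gave p = 0.1, the smallest that the 20 assignments of such differences allow. Differences were taken by replicate number, although the labels do not tie a number to a brain. Cytoplasmic tRNA took 10.9% ± 0.57 in WT and 12.1% ± 0.28 in KIN astrocytes and 9.74% ± 1.43 in WT and 15.4% ± 1.30 in KIN microglia (SD, n = 3 each), 4.40 points more in microglia (exact permutation p = 0.1). As the smallest p of this permutation is 0.1, no adjusted p over the 20 classes could be under 0.05, so it cannot decide for any class. With genotypes permuted within each fraction, which needs no such pairing, mitochondrial tRNA had an exact permutation p of 0.005, the smallest that 400 arrangements allow (adjusted 0.1), and cytoplasmic tRNA 0.13.

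**Figure D5:**
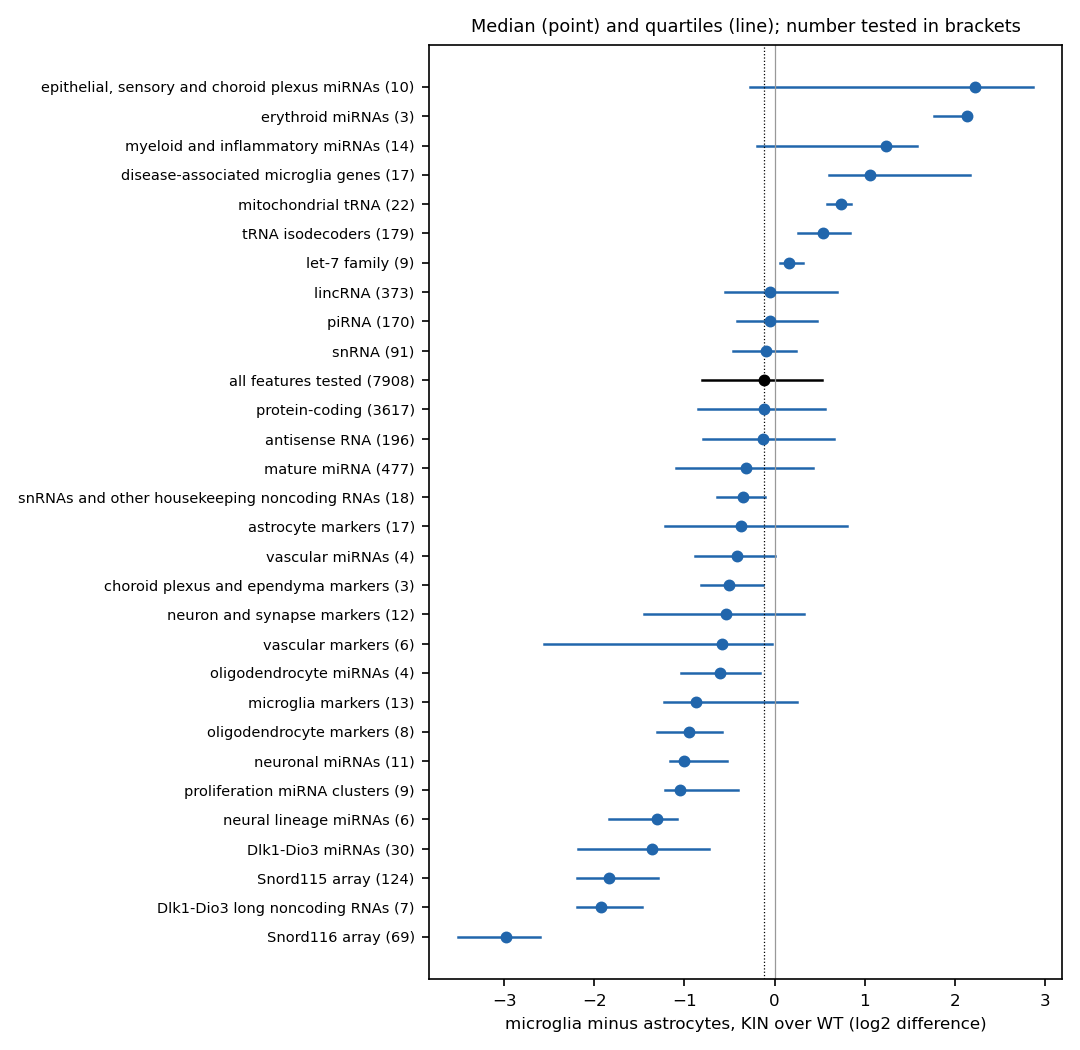
Median (point) and quartiles (line) of the interaction, in log2 units, over the tested members of RNA classes, lists and snoRNA rows, with their number in brackets; the black point and dotted line mark all features, at −0.11. Snord116 copies lie lowest, at −2.98, and the epithelial, sensory and choroid plexus miRNAs highest, at 2.22.

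Other lists gave no call of the interaction. The 3 tested erythroid miRNAs were all positive with a median of 2.14 and rose in KIN microglia, where mmu-miR-451a, made in red blood cells, was at 33.7, 143 and 37.5 CPM against 13.7, 23.6 and 15.8 in WT. Its interaction was 1.39 ± 0.65 (SE, edgeR adjusted p 0.515), and DESeq2 called 0 of the 3, all of which had an unadjusted p of at most 0.05. The 9 let-7 miRNAs had a median of 0.16, the 4 oligodendrocyte miRNAs −0.60 and the 4 vascular miRNAs −0.42, of which 0, 1 and 0 had a p of at most 0.05 before adjustment and DESeq2 called 0. The median was −0.38 over 17 astrocyte transcripts, −0.87 over 13 homeostatic microglia transcripts, −0.54 over 12 neuron and synapse transcripts, −0.95 over 8 oligodendrocyte transcripts and −0.58 over 6 vascular transcripts. At an unadjusted p of at most 0.05 these had 3, 1, 2, 0 and 1 members, and DESeq2 called 1 astrocyte transcript and 0 of the others. The 3 choroid plexus and ependyma transcripts had a median of −0.51, the 1 tested transcript of other myeloid and lymphoid cells had 0.83, neither with a p of at most 0.05 before adjustment, and red blood cell transcripts, at 0 to 1.64 CPM in all, had no member tested.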

How the data were processed

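Small RNA was sequenced from sorted glial fractions. Per the labels and the study's methods, the authors trimmed reads with Cutadapt 4.6, aligned them with Bowtie2 2.4.4 in turn to mature miRNAs, tRNAs, piRNAs and Ensembl noncoding and coding transcripts of mm39, and counted them with HTSeq 2.0.2 without strand. The deposited counts are whole reads per feature, not normalized, and near-identical copies divide their reads. The kit adds molecular identifiers, but collapsing by them is not stated for these libraries, so intervals cover counting error only. A further 36 per-library columns and the authors' columns of their own KIN comparisons (fold changes and p-values) were not used here.

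Transcripts were summed per gene (GENCODE vM39, GRCm39) and tRNA copies per isodecoder. The 12 glial libraries were fitted with edgeR 4.0.16 (quasi-likelihood test, 4 group means, TMM factors on library totals, at least 5 counts in at least 2 libraries), with Benjamini-Hochberg adjustment over all 7908 features. Calls needed an adjusted p of at most 0.05 and 1 on the log2 scale. Scripts were tested on simulated data. Groups came from the sample titles. Named features were the 12 called ones with the smallest p in each direction, a hairpin going with its miRNA, and tested members of lists of cell type markers, miRNA families and imprinted loci, with values for those called or the few with the most counts. The members and lists were chosen with earlier results of these data known. The labels number biological replicates without tying a number to a brain, so p-values measure the spread between these libraries. Alternatives were other scalings, filters, DESeq2 1.42.0, blocks and left-out libraries.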

Additional observations from a re-analysis of the deposited data

Results flagged for a closer look

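Each result here was listed because the KIN change differed between microglia and astrocytes in the edgeR test of that difference, or, for the Snord116 copies, in the fit of their sum. Values are log2 differences, microglia minus astrocytes. The KIN change was more positive in microglia for mmu-miR-200c-3p (5.79), Fbxw2 (4.97), mmu-miR-200a-3p (4.17), Apoe (2.63), mmu-miR-210-3p (2.51) and mmu-miR-34a-5p (1.63). Among miRNAs it was more negative for mmu-miR-466p-3p (−3.83), mmu-miR-92b-3p (−3.63), mmu-miR-202-5p (−3.38), mmu-miR-466d-3p (−3.06), mmu-miR-669o-3p (−2.79), mmu-miR-669a-3p (−2.70), mmu-miR-34b-3p (−2.61), mmu-miR-375-3p (−2.53), mmu-miR-335-5p (−2.37), mmu-miR-135a-5p (−2.01) and mmu-miR-19b-3p (−1.63). Among snoRNAs and their host it was more negative for Gm25615 (−7.06, with no count in KIN microglia, so the value depends on the prior count), Snord116l17 (−4.86), Gm24760 (−3.84), Gm26201 (−3.70), Gm22285 (−3.68), Snord116l5 (−3.57), Gm24518 (−3.53), Snord116l2 (−3.51), the summed Snord116 copies (−2.74) and Snhg14 (−2.53). The others were mmu-piR-59557 (−2.31), Glyctk (−2.04), Ccnb1ip1 (−1.97) and mmu-piR-44760 (−1.88).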

How the results depend on the processing

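Main counts were 10 higher and 59 lower. Calls moved to 4 higher and 1 lower with factors from mature miRNAs alone, 90 lower with no filter, 13 lower with 10 counts in 6 libraries, 22 higher and 109 lower in DESeq2, 23 lower with all 18 libraries and 14 lower with transcripts not summed. Leaving out 1 library gave 3 to 138 higher and 1 to 122 lower, the highest without microglia WT replicate 2 (138 and 122). Chosen after seeing the data, leaving out WT replicate 2 of both fractions gave 126 and 168, summing snoRNA copies per row 10 lower, and leaving out hairpins 6 and 38. A replicate block for the brain gave 113 lower and for the number alone 107 lower, and same-number correlations of deviations were −0.0918 to 0.323, over 0.1 in 2 of 6 pairs, each of which matched its own number best. Whether a number marks 1 brain is not given by the labels and cannot be settled from these correlations. Class medians changed sign in 49 of 644 values and moved by more than their within-group SD in 56. That of the epithelial, sensory and choroid plexus miRNAs moved so far in 8 of 23 alternatives, within 1.67 to 2.775. Of 527 values of named features none reversed and 139 no longer passed. The summed Snord115 copies passed with the replicate block for the brain (adjusted p 0.0251) and without microglia WT replicate 2 alone (0.00233) or both WT replicate 2 libraries (0.00285). The causes were not tested. Depth limits features of few counts, such as Fbxw2 with 40.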
